A study of Mus musculus with 8 samples.

Results

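The 10 genes described here, Adgrg1, Asb2, Tmem119, Igfbp4, Insm1, Cntln, Spsb4, Kif13a, Sccpdh and Mvb12b, were chosen by their levels in the B tumours: each stood far lower in both B deltaPOZ libraries than in both B wt libraries. They are 10 of the 16456 genes tested. The study sequenced messenger RNA of spleen tumours from C57Bl6 mice in 4 groups of 2 libraries, and the labels give each library a mouse of its own. B deltaPOZ and B wt are tumours of B cells, and T deltaPOZ and T wt are tumours of CD4+ T cells. In the deltaPOZ groups Miz1 lacks its POZ domain, and in the wt groups it is intact. The names deposited with the T libraries carry the tag Notch in both groups and the tag ENU in T deltaPOZ alone, so the T groups may differ in more than the allele. The sources used here do not name the driver of the B tumours, the Cre line or the age of the mice.

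Miz1, encoded by Zbtb17, is a zinc finger transcription factor that binds near gene starts, and its POZ domain lets its molecules join. It activates genes on its own and can repress them when Myc binds to it. The 10 genes are not one pathway: they encode surface and secreted proteins, adaptors of ubiquitin ligases, a transcription factor, parts of vesicle transport and the centrosome, and an oxidoreductase-like protein. Adgrg1 is known from blood stem cells and cytotoxic lymphocytes, and Asb2 from myeloid leukemia cells treated with retinoic acid. Tmem119 is best known as a marker of microglia, and Insm1 as a factor of neuroendocrine cells.

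All 10 genes are protein coding and lie on 9 chromosomes, with Insm1 and Mvb12b both on chromosome 2. RefSeq promoter windows (GRCm38.p6) of 300 bases, running from 250 before to 50 after a start site, were found for 8 of the 10 genes, and Adgrg1 and Asb2 have 2 each. Tmem119 and Insm1 had no entry. Both strands of these 10 windows were searched for CACGTG (the E-box of Myc and Max), ATCGGT (a core reported for Miz1), CAGGTG (an E-box of E proteins), TGTGGT (Runx) and CCGGAAG (Ets). The 4 windows that held a match are shown, with the matched letters in capitals (CACCTG is CAGGTG read on the other strand).
Adgrg1, chr8:94976859-94977158, plus strand: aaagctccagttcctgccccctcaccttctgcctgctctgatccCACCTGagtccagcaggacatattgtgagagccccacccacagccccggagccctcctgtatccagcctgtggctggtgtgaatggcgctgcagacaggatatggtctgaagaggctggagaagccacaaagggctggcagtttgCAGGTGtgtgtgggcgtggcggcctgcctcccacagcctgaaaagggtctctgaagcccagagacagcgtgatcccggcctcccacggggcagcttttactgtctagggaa
Asb2, upstream start, chr12:103355952-103356251, minus strand: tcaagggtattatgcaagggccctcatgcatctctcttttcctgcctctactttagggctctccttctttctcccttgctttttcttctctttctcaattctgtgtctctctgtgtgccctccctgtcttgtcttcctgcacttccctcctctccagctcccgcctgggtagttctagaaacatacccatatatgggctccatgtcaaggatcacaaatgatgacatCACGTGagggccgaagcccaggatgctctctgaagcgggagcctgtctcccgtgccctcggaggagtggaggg
Asb2, inner start, chr12:103338341-103338640, minus strand: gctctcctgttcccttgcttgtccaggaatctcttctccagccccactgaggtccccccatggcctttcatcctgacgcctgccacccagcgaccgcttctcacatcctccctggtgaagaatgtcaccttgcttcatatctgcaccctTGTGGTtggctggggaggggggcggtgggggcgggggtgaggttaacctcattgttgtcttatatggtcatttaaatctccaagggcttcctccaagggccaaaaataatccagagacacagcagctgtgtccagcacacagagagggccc
Mvb12b, chr2:33887897-33888196, minus strand: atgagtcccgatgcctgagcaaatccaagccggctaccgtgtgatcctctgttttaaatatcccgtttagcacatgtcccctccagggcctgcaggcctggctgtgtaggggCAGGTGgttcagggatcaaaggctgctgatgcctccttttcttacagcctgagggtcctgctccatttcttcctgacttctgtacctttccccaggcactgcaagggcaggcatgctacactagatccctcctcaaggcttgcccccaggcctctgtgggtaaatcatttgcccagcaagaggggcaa
The CACGTG of Asb2 begins 23 bases before its upstream start site, at position -23, and the TGTGGT of its inner start site at -101. CAGGTG begins at -206 and -61 in Adgrg1 and at -138 in Mvb12b. The same words occur in 7.15% (CACGTG), 16.8% (TGTGGT) and 20.2% (CAGGTG) of all 32851 windows of the table. No member window held ATCGGT or CCGGAAG, which occur in 2.33% and 8.86% of all windows. The windows of Kif13a, Sccpdh, Igfbp4, Spsb4 and Cntln held none of the 5 words. Base composition ranged widely among the 10 windows, from 53.0% G and C at the upstream start of Asb2 to 86.7% in Kif13a. Their median was 62.2% against 52.7% over all windows. The ratio of observed to expected CpG was 0.174 in Mvb12b and 1.10 in Kif13a, the lowest and highest of the 10 windows.

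The libraries held 44330101 to 58271208 gene counts. For a count of 0 the 95% upper limit is about 3 counts, which equal 0.0497 to 0.0667 CPM (counts scaled to one common library total). This limit covers counting error only. The labelled cell types showed in their markers, and 8 of 8 B cell markers had counts in every library. They summed to 1825 and 1731 CPM in B deltaPOZ, 2765 and 2211 CPM in B wt and 24.5 to 134 CPM in the T tumours. Both B deltaPOZ sums thus lay below both B wt sums. In B 7 of these markers had a negative log2 fold change of deltaPOZ over wt and 1 a positive one (median -0.52). By edgeR 0 passed an adjusted p of 0.05. The part of this difference in the levels of the genes described here was not tested. The 8 T cell markers summed to 1821 to 2629 CPM in the T tumours and 26.1 to 53.6 CPM in the B tumours. Xist RNA, which coats the inactive X chromosome, was at 0.936 and 0.757 CPM in B deltaPOZ against 975 and 1477 CPM in B wt, so sex and genotype cannot be told apart in the B tumours. In T it was at 11.8 and 35.4 CPM in T deltaPOZ and 1246 and 26.0 CPM in T wt. B and T libraries carry different run tags, so run and lineage cannot be told apart. Replicate n is 2 in every group, and means are given ± SD.

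Among the genes for surface and secreted proteins, Adgrg1 encodes an adhesion G protein-coupled receptor (ENSMUSG00000031785, GRCm38 chromosome 8, 94974751 to 95014217). It stood at 0.0780 and 0.319 CPM in B deltaPOZ, against 11.9 and 24.3 CPM in B wt. The B deltaPOZ mean was 1.10% of the B wt mean. Both T groups stood above both B groups, at 35.6 and 37.8 CPM in T deltaPOZ and 57.4 and 56.5 CPM in T wt. Adgrg1 was therefore nearly absent from 1 of the 4 groups only, and the libraries of neighbouring groups in this order did not overlap.

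Tmem119 encodes a small membrane protein (ENSMUSG00000054675, chromosome 5, 113793729 to 113800516). It stood at 0.117 and 0.0797 CPM in B deltaPOZ, which are 6 and 4 counts, against 13.8 and 83.8 CPM in B wt. The B wt libraries thus differed 6.08-fold from each other, yet both were far above either B deltaPOZ library. In the T tumours it stood at 0.110 and 0.182 CPM in T deltaPOZ and 0.0371 and 0.0721 CPM in T wt. B wt was thus the 1 group with more than 1 CPM.

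Igfbp4 encodes a secreted protein that binds insulin-like growth factors and holds them from their receptor (ENSMUSG00000017493, chromosome 11, 99041244 to 99054392). It stood at 12.3 and 9.93 CPM in B deltaPOZ, against 87.0 and 122 CPM in B wt. The remaining level in B deltaPOZ was 10.7% of B wt, the highest share among the 10 genes, and still above all T libraries. T deltaPOZ had 2.18 and 2.34 CPM and T wt 1.56 and 1.06 CPM.

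Asb2 and Spsb4 encode adaptors that bring substrates to the cullin 5 ubiquitin ligase through a SOCS box. Asb2 directs filamins to breakdown (ENSMUSG00000021200, chromosome 12, 103321142 to 103356001). It stood at 3.08 and 1.99 CPM in B deltaPOZ, against 43.1 and 36.4 CPM in B wt. The T tumours held intermediate levels, with 7.37 and 6.38 CPM in T deltaPOZ and 4.18 and 6.45 CPM in T wt, which overlapped. B wt 1 differed from the other B libraries by a median of 0.61 (log2) over 314 genes of chromosome 12 with a mean over 10 CPM. In B wt 2 this shift was -0.14. The part of these shifts in the level of Asb2 was not tested.

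Spsb4 is known to act on inducible nitric oxide synthase (ENSMUSG00000046997, chromosome 9, 96943482 to 97018843). It had 2 counts and 0 counts in B deltaPOZ, against 305 and 160 counts in B wt. These counts are 0.0390 and 0 CPM in B deltaPOZ, against 5.79 and 3.56 CPM in B wt. The pooled counts gave a ratio of 0.414% of B wt, with an exact 95% Clopper-Pearson interval of 0.05 to 1.504% that covers counting error only. The T tumours held most of it, 49.5 and 68.1 CPM in T deltaPOZ and 24.4 and 40.0 CPM in T wt. Gm16010, an antisense gene inside Spsb4, had group means in the same order at a far lower level. It stood at 0 and 0 CPM in B deltaPOZ, 0.190 and 0.0222 in B wt, 1.26 and 1.41 in T deltaPOZ and 0.761 and 1.30 in T wt. Gm16010 had at most 85 counts in any library, against 1316 to 4107 counts of Spsb4 in the T libraries. The sources used here do not say whether the counting used strand. It is therefore not known whether some reads of one gene were counted in the other.

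Insm1 encodes a zinc finger repressor that acts in neuroendocrine development (ENSMUSG00000068154, chromosome 2, 146221921 to 146225020). It stood at 0.137 and 0.399 CPM in B deltaPOZ, against 12.9 and 29.4 CPM in B wt. Levels in T were 0.0916 and 0.166 CPM in T deltaPOZ and 0.0371 and 0.0541 CPM in T wt. Like Tmem119, it was above 1 CPM in B wt alone. Of 6 neuroendocrine markers, Chga, Chgb, Neurod1 and Snap25 had 0 counts in each of the 4 B libraries, and the 6 summed to 0.527 and 0.518 CPM in B deltaPOZ and 0.266 and 0.823 CPM in B wt.

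Kif13a and Mvb12b act in vesicle traffic. Kif13a encodes a kinesin-3 motor that moves endosomes along microtubules (ENSMUSG00000021375, chromosome 13, 46749087 to 46929867). It stood at 1.60 and 0.498 CPM in B deltaPOZ, against 20.7 and 23.2 CPM in B wt. In T it was at 3.59 and 3.68 CPM in T deltaPOZ and 3.79 and 3.51 CPM in T wt, the log2 fold change nearest to 0 in T among the 10 genes.

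Mvb12b encodes a subunit of ESCRT-I, which sorts ubiquitin-tagged cargo into multivesicular bodies (ENSMUSG00000038740, chromosome 2, 33729953 to 33887946). It stood at 0.527 and 1.24 CPM in B deltaPOZ, against 13.8 and 14.6 CPM in B wt. The T tumours held more, 46.3 and 90.2 CPM in T deltaPOZ and 49.7 and 55.4 CPM in T wt, and these groups overlapped. The noncoding RNA gene Nron overlaps Mvb12b on the other strand. It had 1.12 and 2.65 CPM in T deltaPOZ and 4.33 and 12.4 CPM in T wt, the reverse order of Mvb12b in T deltaPOZ 2 and T wt 2.

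Cntln encodes centlein, a protein that links centrioles (ENSMUSG00000038070, chromosome 4, 84884309 to 85131921). It stood at 0.663 and 0.219 CPM in B deltaPOZ, against 41.6 and 51.1 CPM in B wt, and the B deltaPOZ mean was 0.952% of B wt. T levels were 5.59 and 8.40 CPM in T deltaPOZ and 3.66 and 10.1 CPM in T wt. Over 544 genes of chromosome 4 with a mean over 10 CPM, B deltaPOZ 1 and 2 differed from the other B libraries by medians of 0.46 and 0.05 (log2). B wt 1 and 2 differed by -0.24 and -0.29. Such medians are given here for the chromosomes of Asb2 and Cntln only. The part of these shifts in the level of Cntln was not tested. Gm12418, a pseudogene within Cntln on the same strand, stood at 2.30 and 2.33 CPM in B deltaPOZ and 1.44 and 2.49 CPM in B wt.

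Sccpdh encodes a protein like saccharopine dehydrogenase (ENSMUSG00000038936, chromosome 1, 179668210 to 179687189). It stood at 0.722 and 0.439 CPM in B deltaPOZ, against 16.3 and 9.72 CPM in B wt. T deltaPOZ had 2.80 and 3.55 CPM and T wt 1.60 and 0.757 CPM.

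**Figure D1:**
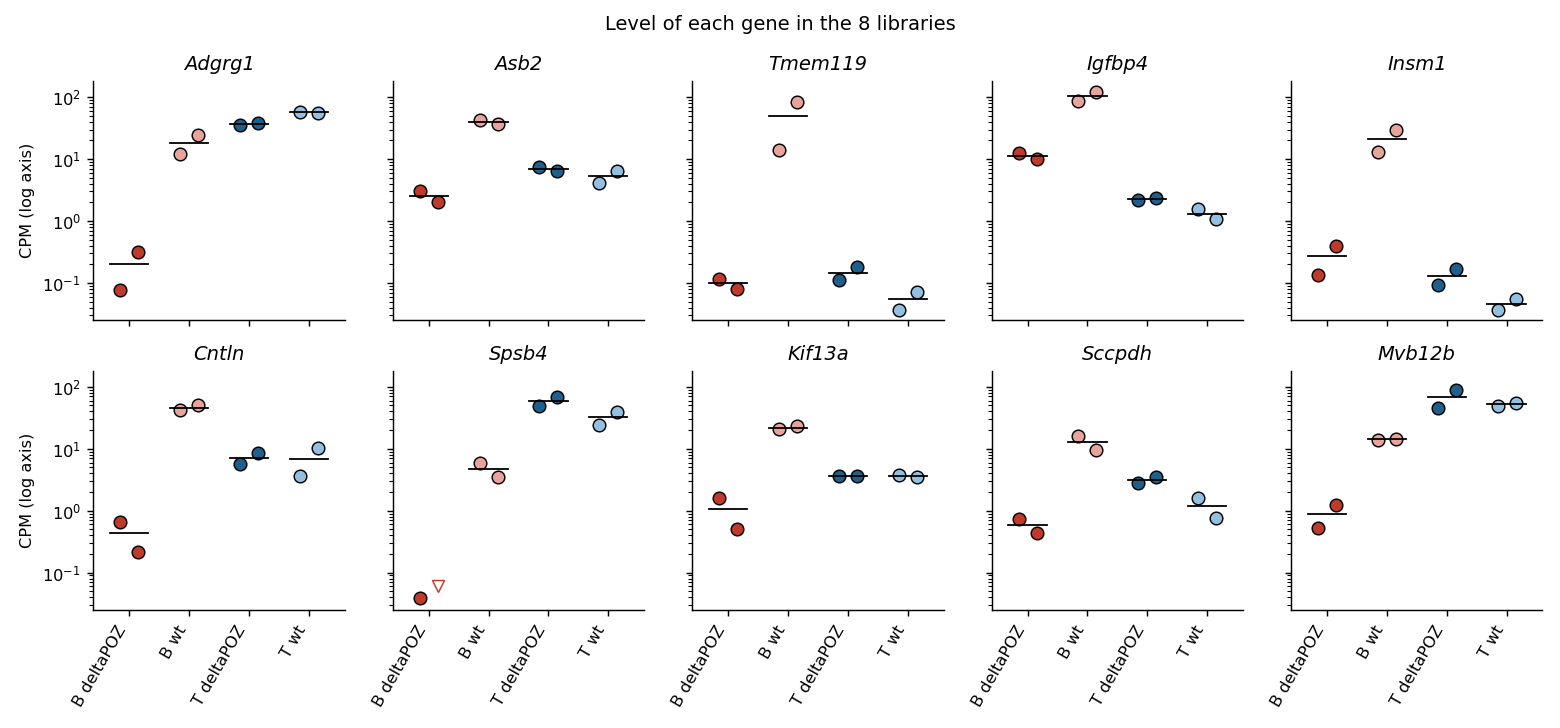
CPM of the 10 genes in each library on a log axis, 1 panel a gene, with points for the 2 libraries of B deltaPOZ, B wt, T deltaPOZ and T wt and a bar at the group mean. The open triangle marks the 3-count limit of B deltaPOZ 2, where Spsb4 had 0 counts. Spsb4 has no mean bar in B deltaPOZ. In every panel both B deltaPOZ points lie below both B wt points, and Adgrg1, Spsb4 and Mvb12b are highest in the T tumours.

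The B values are the ones that chose the genes, so they carry no test. In all 10 genes both B deltaPOZ libraries lay below both B wt libraries, which also held for 19.1% of all tested genes. The median log2 fold change of deltaPOZ over wt was -5.39 over the 10 genes and -0.01 over all tested genes. The values ran from -8.92 (SE 1.10) in Tmem119 to -3.23 (SE 0.30) in Igfbp4. The fitted value of Spsb4, -7.73, depends on the prior count. The rule set no number for far lower. Of all tested genes 95, or 0.577%, fell at least as far as Igfbp4 with no overlap and with a B wt mean no lower than that of Spsb4, and 85 of these are not among the 10. Snx18, next to Igfbp4 in this order, stood at 3.88 CPM in B deltaPOZ and 37.8 CPM in B wt (log2 fold change -3.28). In 6 of the 10 genes both B deltaPOZ libraries were under 1 CPM. In bulk tumours fewer cells of a type and less RNA per cell cannot be told apart.

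Among the B wt libraries themselves, 7 of the 10 genes were higher in B wt 2 and 3 in B wt 1, namely Asb2, Spsb4 and Sccpdh. Adgrg1, Tmem119 and Insm1 stood 2.03, 6.08 and 2.28 times as high in B wt 2 as in B wt 1. Some markers of other cells were also higher in B wt 2. The 8 neutrophil markers summed to 52.7 and 57.0 CPM in B deltaPOZ and to 119 and 722 CPM in B wt 1 and 2, and all 8 had counts in each B library. The 10 macrophage and microglia markers summed to 380 and 101 CPM in B deltaPOZ and to 141 and 768 CPM in B wt, again with counts in each library. The 8 markers of NK and cytotoxic cells summed to 13.6 and 3.69 CPM in B deltaPOZ and to 3.55 and 34.7 CPM in B wt. The 9 stroma and endothelium markers summed to 103 and 129 CPM in B deltaPOZ and to 192 and 197 CPM in B wt. The 8 erythroid markers went the other way, with 12.5 and 219 CPM in B deltaPOZ and 5.03 and 4.74 CPM in B wt. Their part in the levels of the 10 genes was not tested.

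Genes of progenitor and precursor B cells were also compared in B. Of the 17 on that list 16 had a negative log2 fold change, against 50.7% of all tested genes, and the median of the list was -2.56. By edgeR 0 of them passed an adjusted p of 0.05, against 0.00608% of all tested genes, and 8 were lower at an unadjusted p under 0.05, against 6.45% of all tested genes. Erg, a transcription factor of blood progenitors, stood at 0.156 and 0.0598 CPM in B deltaPOZ and 21.1 and 11.5 CPM in B wt. Vpreb1, part of the surrogate light chain, stood at 0.0585 and 0.937 CPM in B deltaPOZ and 19.3 and 21.9 CPM in B wt. The summed level of the list was 1248 and 451 CPM in B deltaPOZ and 2836 and 1240 CPM in B wt, so the groups overlapped slightly. The part of this difference in the levels of the 10 genes was not tested.

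Compared per kilobase of exon (RPKM), the 10 genes spanned a wide range in B wt. Igfbp4 (23.6 ± 5.5 RPKM) and Tmem119 (21.1 ± 21 RPKM) had the highest levels there, followed by Asb2 (11.2 ± 1.3 RPKM). The libraries of Tmem119 overlapped with those of both its neighbours in this order. Insm1 (6.82 ± 3.8 RPKM), Cntln (6.52 ± 0.95 RPKM) and Adgrg1 (3.34 ± 1.6 RPKM) followed. Kif13a (2.71 ± 0.22 RPKM), Sccpdh (1.72 ± 0.62 RPKM), Mvb12b (1.63 ± 0.061 RPKM) and Spsb4 (1.04 ± 0.35 RPKM) were lowest. Of these neighbours, Insm1 and Cntln, Adgrg1 and Kif13a, and Sccpdh and Mvb12b did not differ beyond the spread of their libraries. In the T tumours the order was another: Spsb4 had 13.1 ± 2.9 RPKM in T deltaPOZ, Mvb12b 7.81 ± 3.6 and Adgrg1 6.77 ± 0.29. In T wt Adgrg1 led with 10.5 ± 0.12 RPKM, before Spsb4 with 7.18 ± 2.4 and Mvb12b with 6.02 ± 0.46. The libraries of Mvb12b overlapped with those of Adgrg1 in T deltaPOZ and with those of Spsb4 in T wt. Tmem119 and Insm1 averaged under 0.1 RPKM in T deltaPOZ, T wt and B deltaPOZ.

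Over the 4 groups the genes fell into sets by where else they were found. All 4 T libraries lay above both B wt libraries for 3 genes, Adgrg1, Spsb4 and Mvb12b, against 26.8% of all tested genes. For the other 7 all T libraries lay below both B wt libraries, against 23.6% of all tested genes. B wt levels took part in choosing the genes, so these counts are a description. B deltaPOZ was the lowest group for 7 genes, and T wt for Tmem119, Igfbp4 and Insm1. Pairs of the 10 genes had Pearson correlations of log2 CPM from -0.44 (Igfbp4 and Mvb12b) to 0.98 (Spsb4 and Mvb12b) over the 8 libraries. Tmem119 and Insm1 reached 0.97, Adgrg1 and Mvb12b 0.98, and Asb2 and Kif13a 0.96. These points share lineage, run and genotype.

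The T tumours took no part in the choice of the genes, so the same comparison could be tested there. By edgeR's quasi-likelihood test 0 of the 10 genes passed an adjusted p of 0.05 between T deltaPOZ and T wt, against 0% of all tested genes. DESeq2 and limma-voom called 0 of the 10 as well. Of the 10, Tmem119 and Insm1 passed the filter on low counts only through B wt. With 17 and 15 counts in T deltaPOZ and 6 and 5 in T wt, these 2 genes could hardly pass in T. The calls therefore bear on the other 8 genes. At an unadjusted p under 0.05 stood 2 of the 10, Igfbp4 and Sccpdh, both higher in T deltaPOZ, against 1.3% of all tested genes in that direction. The edgeR adjusted p was 1 for each of the 10 genes. Over all tested genes edgeR and limma-voom called 0 each and DESeq2 called 50, while 436 had an unadjusted edgeR p under 0.05.

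The direction in T was mixed. Tmem119 and Insm1 passed the filter on low counts through B wt, and the T libraries alone did not keep them. The T libraries alone kept the other 8 of the 10 genes, among 15659 genes in all. Of these 8, 6 had a positive and 2 a negative log2 fold change, against 49% positive among the 15659. Both T deltaPOZ libraries lay above both T wt libraries for 3 of the 8, Igfbp4, Spsb4 and Sccpdh, against 15.1% of the 15659. Adgrg1 lay below in both, against 17.5%, and the other 4 overlapped. Sccpdh had a log2 fold change of 1.43 (SE 0.54), with 3.18 ± 0.53 CPM in T deltaPOZ and 1.18 ± 0.59 CPM in T wt. That of Igfbp4 was 0.78 (SE 0.29), with 2.26 ± 0.11 CPM in T deltaPOZ and 1.31 ± 0.35 CPM in T wt. Spsb4 had 0.87 (SE 0.46), with 58.8 ± 13 CPM in T deltaPOZ and 32.2 ± 11 CPM in T wt. Tmem119 (1.38, SE 1.07) and Insm1 (1.45, SE 0.81) rested on 17 and 15 counts over both T deltaPOZ libraries, against 6 and 5 in T wt, too few to read a direction from. Adgrg1, lower in deltaPOZ in both lineages, had -0.63 (SE 0.49), with 36.7 ± 1.6 CPM in T deltaPOZ and 56.9 ± 0.65 CPM in T wt. Kif13a (-0.01, SE 0.52), Cntln (0.02, SE 0.61), Asb2 (0.37, SE 0.35) and Mvb12b (0.38, SE 0.43) differed by about their standard error or less. None of these differences passed the test, which does not show that the groups are alike.

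**Figure D2:**
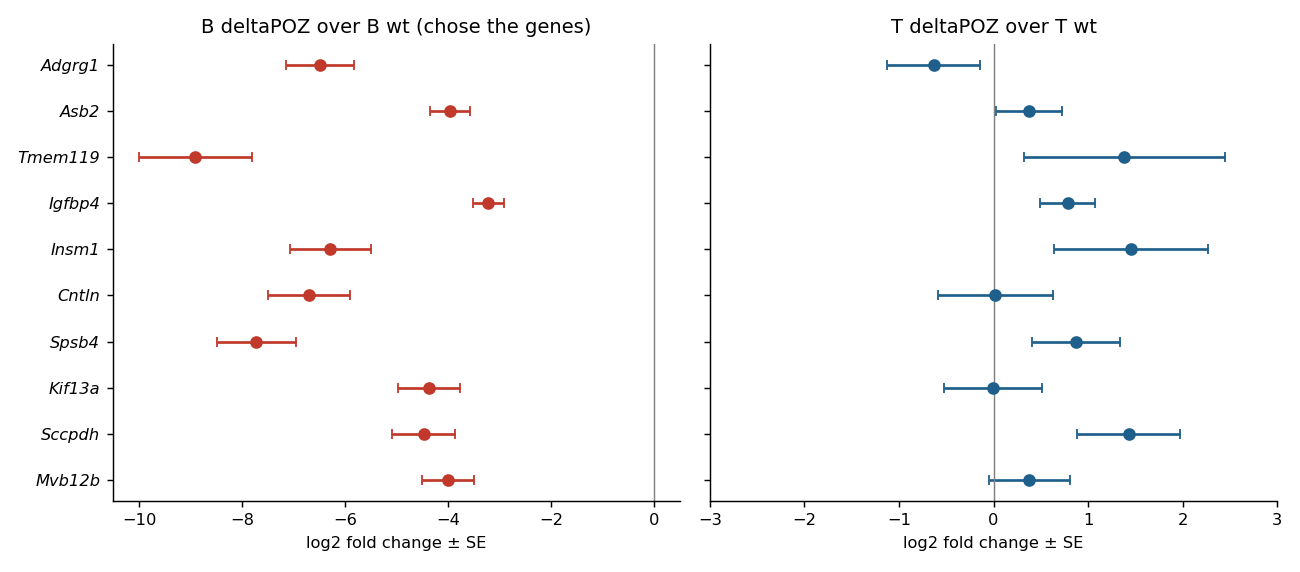
Log2 fold change with its standard error for the 10 genes, B deltaPOZ over B wt on the left and T deltaPOZ over T wt on the right, on different scales. The left panel shows the values that chose the genes, from -8.92 to -3.23, while on the right 0 pass the test, and Tmem119 and Insm1 rest on few counts.

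Marker sums of other cells also differed between the T libraries. The B cell markers summed to 96.8 and 134 CPM in T deltaPOZ and 97.0 and 24.5 CPM in T wt, and all 8 had positive log2 fold changes in T. The stroma and endothelium markers summed to 103 and 168 CPM in T deltaPOZ and 120 and 120 CPM in T wt, and the macrophage and microglia markers to 268 and 266 CPM in T deltaPOZ and 156 and 179 CPM in T wt. All 9 of the stroma and all 10 of the macrophage markers had positive log2 fold changes in T, and 0 of these markers passed the test. The erythroid markers, 8 of 8 with a negative log2 fold change, summed to 6311 and 10425 CPM in T deltaPOZ and 3591 and 18861 CPM in T wt. The neutrophil markers summed to 417 and 107 CPM in T deltaPOZ and 857 and 52.6 CPM in T wt, and 7 of 8 had negative log2 fold changes. The markers of NK and cytotoxic cells summed to 154 and 397 CPM in T deltaPOZ and 272 and 164 CPM in T wt, and 5 of 8 had negative ones. The part of these cells in the low T levels of Igfbp4, Sccpdh, Tmem119 and Insm1 was not tested.

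Relatives of the 10 genes were followed through 7 lists with 97 tested genes. By edgeR 0 of the 97 passed an adjusted p of 0.05 in B (smallest adjusted p = 0.252) and 0 in T. In B 7 were higher at an unadjusted p under 0.05, against 5.68% of all tested genes, and 8 lower, together 15.5% of the 97 against 12.1% of all tested genes, and limma-voom called 0. DESeq2 called 6 of the 97, where it called 4.18% of all tested genes. In T 0 of the 97 stood at an unadjusted p under 0.05, against 2.65% of all tested genes, and DESeq2 and limma-voom called 0. The median log2 fold change of the 97 was -0.08 in B and -0.01 in T. The far lower levels in B were thus not seen across these families as a whole, though single relatives stood low.

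Of the adhesion receptor genes, 21 were tested, with 14 negative and 7 positive in B. Adgrg3, the neighbour of Adgrg1, stood at 0.156 and 0.239 CPM in B deltaPOZ and 3.55 and 49.0 CPM in B wt (log2 fold change -7.04, SE 1.77, edgeR adjusted p = 0.268). Adgrb2 had the opposite sign, with 0.332 and 1.91 CPM in B deltaPOZ and 0.0380 and 0.0222 CPM in B wt (edgeR adjusted p = 0.330). Its B wt values lay below the 3-count limits of these libraries, 0.0569 and 0.0667 CPM, and so rest on few counts. Of 21 tested ASB and SPSB adaptors and parts of the cullin 5 ligase, 11 were negative and 10 positive in B. Cul5 and Rnf7 of the ligase core were at like levels in B. Cul5, the scaffold, averaged 131 ± 14 CPM in B deltaPOZ and 130 ± 12 CPM in B wt. Rnf7, the RING subunit, averaged 102 ± 2.6 CPM in B deltaPOZ and 112 ± 15 CPM in B wt. Levels of the other core parts on the list are not given here. Spsb3, another gene of the SPSB family, averaged 30.1 CPM in B deltaPOZ and 41.4 CPM in B wt.

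Of 12 tested genes of the IGF axis 7 were negative in B, and the list had a median log2 value of -1.09. Insr, the insulin receptor, averaged 19.8 ± 11 CPM in B deltaPOZ and 40.7 ± 4.1 CPM in B wt (edgeR adjusted p = 0.371). Irs2, which docks to it, averaged 7.42 ± 4.4 CPM in B deltaPOZ and 21.6 ± 14 CPM in B wt (edgeR adjusted p = 0.389). Igf2r, which clears IGF2, went the other way, with 128 and 109 CPM in B deltaPOZ and 80.0 and 74.9 CPM in B wt (edgeR adjusted p = 0.362). These 3 did not pass, and neither did any other listed gene.

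Of 9 tested SNAG zinc finger factors and partners of Insm1, 4 were negative and 5 positive in B. Kdm1a, the demethylase that Insm1 recruits, averaged 178 CPM in B deltaPOZ and 144 CPM in B wt. Gfi1b, a repressor that acts in red cell and platelet precursors, stood at 0 and 0.219 CPM in B deltaPOZ and 0.987 and 0.845 CPM in B wt (edgeR adjusted p = 0.349). Of 17 tested kinesin-3 motors, AP-1 subunits and linked genes 9 were negative in B. Kif16b, another endosome motor, stood at 18.4 and 24.8 CPM in B deltaPOZ and 47.1 and 49.3 CPM in B wt (edgeR adjusted p = 0.252). Rab11a, of recycling endosomes, stood at 41.9 and 33.0 CPM in B deltaPOZ and 56.1 and 60.1 CPM in B wt (edgeR adjusted p = 0.327). The groups did not overlap in these 2 genes, nor in 38.9% of all tested genes.

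Of the ESCRT-I list 7 of 8 genes were matched and tested, and Vps28 was not matched. Mvb12a, the paralog of Mvb12b, averaged 50.9 CPM in B deltaPOZ and 43.8 CPM in B wt, so its mean did not fall as that of Mvb12b did. Tsg101, the core subunit, averaged 25.9 CPM in B deltaPOZ and 27.4 CPM in B wt. Vps37c averaged 4.07 ± 0.76 CPM in B deltaPOZ and 8.26 ± 0.36 CPM in B wt (edgeR adjusted p = 0.362). Of 10 centrosome genes 6 were negative in B. Cep250, which joins centrioles, stood at 56.0 and 62.6 CPM in B deltaPOZ and 102 and 110 CPM in B wt (edgeR adjusted p = 0.260). Crocc, rootletin, averaged 29.7 ± 5.1 CPM in B deltaPOZ and 14.3 ± 3.2 CPM in B wt (edgeR adjusted p = 0.295).

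**Figure D3:**
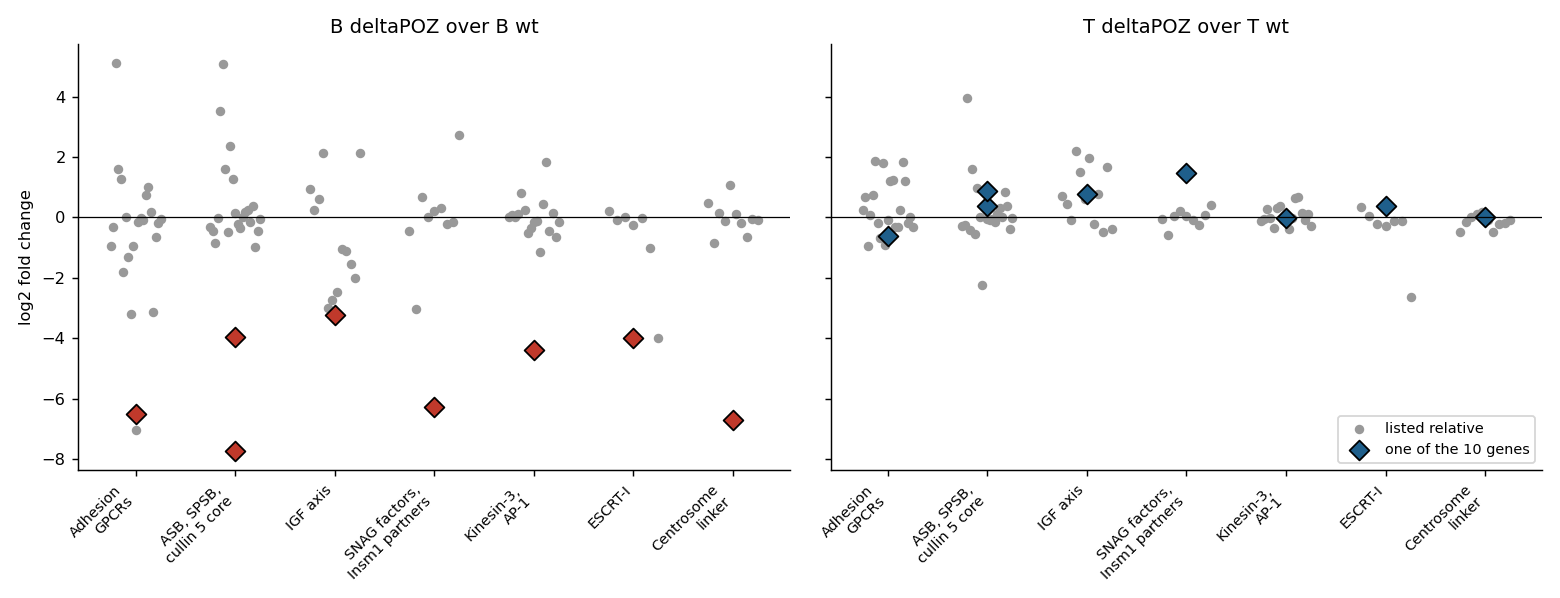
Log2 fold change of each tested relative (grey points) and of the 10 genes with a list (diamonds; Tmem119 and Sccpdh have none), by list, for B deltaPOZ over B wt on the left and T deltaPOZ over T wt on the right. In B the grey points centre near 0 (median -0.08) while the diamonds, chosen for their fall, lie from -7.73 to -3.23.

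Most genes next to the 10 did not share their pattern. Within 1 Mb lay 205 other tested genes, whose median log2 fold change was -0.13 in B and -0.04 in T. As far down as Igfbp4 were 5 of them (2.44%), against 2.21% of all tested genes. Around Adgrg1 this held for Adgrg3 (3.48 kb away) and Drc7 (40.9 kb away), but not for Adgrg5, another adhesion receptor gene 31.5 kb away that averaged 0.686 CPM in B deltaPOZ and 0.769 CPM in B wt. Drc7, a gene of motile cilia, stood at 0.0390 and 0.498 CPM in B deltaPOZ and 7.46 and 63.8 CPM in B wt (edgeR adjusted p = 0.235). In the T tumours, where Adgrg1 was highest, Drc7 stood at 0.0183 and 0.0497 CPM in T deltaPOZ and 0.0557 and 0 CPM in T wt. Adgrg3 stood at 1.08 and 1.92 CPM in T deltaPOZ and 3.01 and 0.216 CPM in T wt. Both neighbours were thus low with Adgrg1 in B deltaPOZ, but neither was highest in T. The others were Gm16010 within Spsb4, Grb7 586 kb from Igfbp4 and Cfap157 946 kb from Mvb12b. Cfap157 stood at 0 and 0 CPM in B deltaPOZ and 0.0759 and 0 CPM in B wt, so its libraries overlapped and it showed no fall. The surroundings of Asb2 had the lowest median, -0.59 over 22 genes, and those of Sccpdh the highest, 0.17 over 12 genes. Cntln had 4 tested neighbours, with a median of -0.06.

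**Figure D4:**
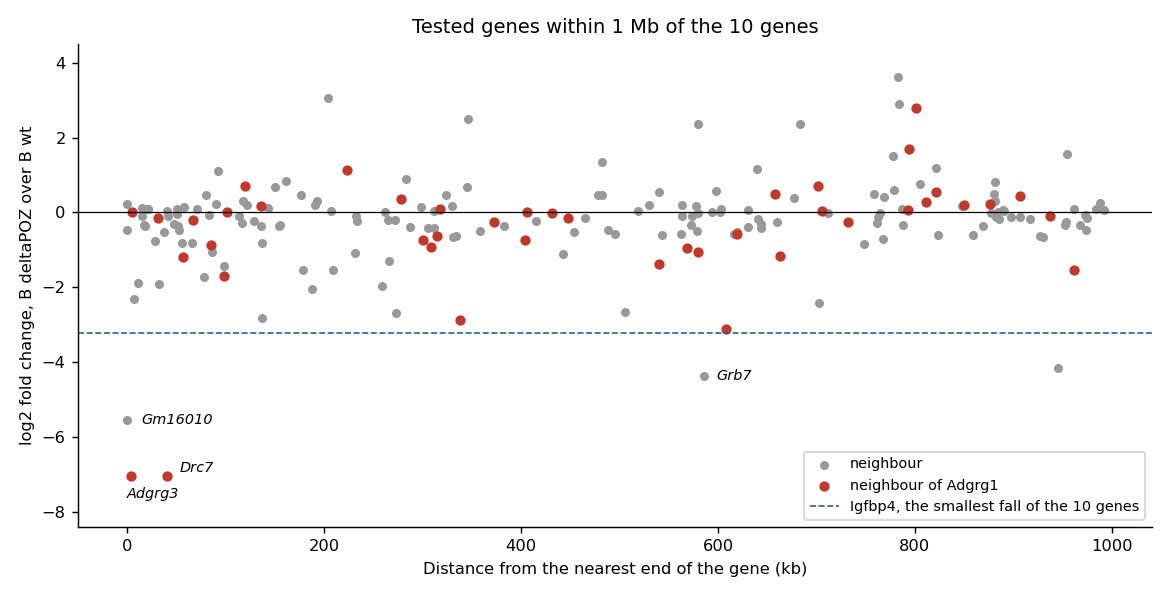
Log2 fold change of B deltaPOZ over B wt for each tested gene within 1 Mb of any of the 10 genes, against its distance in kb, with neighbours of Adgrg1 in red. Most points lie near 0 (median -0.13), and Adgrg3 and Drc7 lie at -7.04 beside Adgrg1.

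The genes outside the 10 whose pattern was most like their mean were Rragd, Sox13, Armcx4, Mex3c and Tmem263, with Pearson correlations of 0.945 to 0.955 over the 8 libraries. Rragd, which encodes a Rag GTPase of nutrient sensing, stood at 4.56 and 6.38 CPM in B deltaPOZ and 37.0 and 25.9 CPM in B wt. Its T levels lay between, at 14.7 and 14.4 CPM in T deltaPOZ and 13.5 and 15.4 CPM in T wt. Mex3c, which encodes an RNA-binding ubiquitin ligase, stood at 62.2 and 60.4 CPM in B deltaPOZ and 139 and 132 CPM in B wt. Among the 10 genes Cntln (0.97), Kif13a (0.97) and Asb2 (0.96) were closest to their common mean and Igfbp4 (0.50) farthest. Each of the 10 is itself part of that mean, which raises its value, so these values do not compare with those of outside genes. These correlations rest on levels in B that chose the genes and are a description.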

How the data were processed

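Counts per gene, 1 file per mouse, were deposited by the authors without normalization. Per the submitters' processing notes, TopHat2 2.0.10, HTSeq, SAMtools and DESeq were used with the mm10 (GRCm38) build. Per the labels' protocols, libraries were stranded mRNA. The sources used here give neither the annotation release nor the strand setting. No-feature (30.4 to 39.3%) and ambiguous (0.471 to 0.554%) counts were left out. GENCODE M21 (GRCm38) gave symbols and positions for 97.7% of identifiers.

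The counts were filtered with filterByExpr, scaled by trimmed mean of M values and fitted with 1 mean per group in edgeR 4.0.16 (R 4.3.3) by the quasi-likelihood test, over 16456 genes and with Benjamini-Hochberg adjustment. Residual degrees of freedom were 4. SE is the fold change over the square root of F. CPM carry the scaling factor, and log2 CPM a prior count of 2. limma 3.58.1 and DESeq2 1.42.0 were alternatives. The code was tested on simulated data. Replicates differed far beyond counting noise, and their numbers follow record order.

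The 10 genes, the lists and the tests were chosen with earlier results of these data known. Named relatives are those with the smallest p in a list, up to 3 a comparison, and in the text core subunits or paralogs chosen after their values were seen (Cul5, Rnf7, Spsb3, Kdm1a, Mvb12a, Tsg101, Adgrg5).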

Additional observations from a re-analysis of the deposited data

Results flagged for a closer look

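For 5 of the 10 genes the T libraries lay apart in the direction opposite to that in B. Both B deltaPOZ libraries lay below both B wt libraries, which is how the genes were chosen, while both T deltaPOZ libraries lay above both T wt libraries. Only 3 of these, Igfbp4, Spsb4 and Sccpdh, passed the filter on the T libraries alone, which kept 8 of the 10 genes. Of all 15659 genes kept there, 15.1% had both T deltaPOZ libraries above both T wt libraries. The T log2 fold changes of deltaPOZ over wt were 1.38 for Tmem119, 0.78 for Igfbp4, 1.45 for Insm1, 0.87 for Spsb4 and 1.43 for Sccpdh. The difference between the lineages was not tested, since its B values chose the genes. In T these 5 genes had an edgeR adjusted p of 1 each. Tmem119 and Insm1 rest on 6 and 5 counts over both T wt libraries and did not pass the filter on the T libraries alone, so their T direction cannot be read.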

How the results depend on the processing

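In T 0 of the 10 genes passed under each of the 14 other settings, which changed the scaling, the tool (DESeq2, limma-voom), the filter on low counts, the libraries fitted (T alone) or left out 1 library. T libraries alone dropped Tmem119 and Insm1 at the filter. Counting only genes kept there, chosen after seeing the data, left 3 in place of 5 genes with T deltaPOZ above T wt, and 6 in place of 8 positive. The median log2 fold change of the 10 genes lay between -5.62 and -5.13 in B. Direction in T turned for Cntln, with -0.30 without T deltaPOZ 2 and -0.54 without T wt 1 (from -0.54 to 0.94 over single libraries left out). It turned for Mvb12b at -0.18 without T deltaPOZ 2 (up to 0.77), and for Kif13a (range -0.0564 to 0.0446) at 0.000959 without B deltaPOZ 1, 0.00606 without T deltaPOZ 1 and 0.0446 without T wt 1. In B every one of the 10 genes stayed negative, and Tmem119 had -7.04 without B wt 2 and Spsb4 between -10.95 and -6.82 without either B deltaPOZ library. Calls over all genes in B, 1 by edgeR, were 688 by DESeq2, 6 by limma-voom, 6 with B libraries alone, 1324 without a filter and 0 to 9 with 1 library left out. In T, 0 by edgeR, they were 50 by DESeq2 and 254 without a filter. Relatives called in B were 6 by DESeq2 and 13 without a filter. The cause was not tested. Levels without the scaling factor left 3 genes higher in T than in B wt, and a 5 Mb window gave -0.05 in place of -0.12 for the median of the 10 per-gene medians of neighbours. The labels give each library a mouse of its own and name no pairs, so no paired analysis was made. Groups of 2 limit all tests, and genes near 0 rest on few counts.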

Other observations

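For each of the 10 genes the tested gene outside the list with the most like log2 CPM over the 8 libraries was found. Adgrg1 was closest to Frmd6 (r = 0.99), at 0.819 and 1.30 CPM in B deltaPOZ, 11.1 and 16.6 CPM in B wt, 21.1 and 13.99 CPM in T deltaPOZ and 23.2 and 24.9 CPM in T wt. Spsb4 was closest to Rgs12 (r = 0.99), a regulator of G protein signalling, at 2.28 and 1.34 CPM in B deltaPOZ, 29.6 and 14.3 CPM in B wt, 54.5 and 62.3 CPM in T deltaPOZ and 54.6 and 83.8 CPM in T wt. Mvb12b was closest to Rnf157 (r = 0.98), at 18.3 and 39.4 CPM in B deltaPOZ, 79.1 and 105 CPM in B wt, 226 and 280 CPM in T deltaPOZ and 245 and 246 CPM in T wt. Insm1 was closest to Acp6 (r = 0.99), Asb2 to Sox13 (r = 0.96), Kif13a to Gna15 (r = 0.97) and Cntln to Kif5b (r = 0.95). Igfbp4 was closest to 5530601H04Rik (r = 0.996), Tmem119 to Apobec4 (r = 0.99) and Sccpdh to Rd3 (r = 0.97). Apobec4 and Rd3 were under 1 CPM in every library. The points share lineage, run and genotype, and each is the highest of many correlations.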
